A study of Drosophila melanogaster with 18 samples.

Results

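The Jonah genes of cytological regions 25B, 66C and 99F were followed in Drosophila melanogaster around puparium formation, in control animals and in animals in which the ecdysone receptor gene EcR was targeted by RNA interference (EcRi). Members were all probe sets (the groups of oligonucleotides that read 1 transcript) annotated to exactly 1 gene symbol beginning with Jon25B, Jon66C or Jon99F. The rule found 7 genes of 10844 with such a probe set, or 7 of 13966 probe sets in all, 1 for each of Jon25Bi, Jon25Bii, Jon25Biii, Jon66Ci, Jon66Cii, Jon99Fi and Jon99Fii. A further 3 Jonah probe sets carried several symbols and lay outside the rule.

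The Jonah genes encode a family of predicted secreted serine endopeptidases made by the larval midgut, where they are thought to digest dietary protein. The paper calls them putative proteases. At the end of larval life a pulse of the steroid hormone 20-hydroxyecdysone, acting through the heterodimer of EcR and Ultraspiracle, triggers puparium formation, and the larval midgut is destroyed and replaced by an adult one. Genes of larval digestion are among those known to be shut off at this transition.

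RNA from whole animals, 10 per sample, was hybridised to 18 Affymetrix Drosophila Genome Arrays, with 3 arrays in each of 6 groups. Controls were w1118 animals. They were sampled at -4, 0 and 4 h relative to pupariation, the earliest as wandering larvae with cleared guts. EcRi animals were sampled at the same times. They carried hs-EcRi-11, a transgene that makes double-stranded RNA against EcR when heated, and received 2 heat treatments of 1 h at 37 °C, 24 h and 18 h before pupariation. The transgene is driven by heat shock in the whole animal and not by a midgut promoter, the EcRi animals went on to arrest as elongated prepupae, and a heat treatment of the controls was not given in the sources used here, so EcR knockdown, strain and heat treatment cannot be told apart. Replicates were independent experiments according to the study's methods.

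Values are expression intensities on a linear scale, and a difference (EcRi minus control) or change (later minus earlier time) is given on the log2 scale with its standard error (SE) from a limma fit over all 13966 probe sets. A probe set was called where its adjusted p was under 0.10 and its change at least 1.5-fold. Array medians lay between 222 and 248. Control -4 h replicate 1 and EcRi 0 h replicate 1 stood apart from the rest, with a highest correlation to any other array of 0.939 and 0.933, against at least 0.974 for the other arrays. EcR itself was read by 2 probe sets. The first measured 534 ± 13.1, 470.2 ± 19.9 and 489 ± 25.6 (SD, n = 3) in controls at -4, 0 and 4 h and 563 ± 8.89, 474 ± 81.2 and 521 ± 11.5 in EcRi animals. The other measured 293 ± 37.8, 180.1 ± 26.0 and 161 ± 5.43 in controls and 205 ± 13.2, 237 ± 44.6 and 207 ± 13.0 in EcRi animals. The second probe set lay lower in EcRi animals at -4 h and higher at 0 and 4 h, its adjusted p being 0.067, 0.098 and 0.086 with changes under 1.5-fold, and neither probe set was called at any time. Whether these probe sets also read RNA from the transgene is not given, so the arrays are named here as labelled. The paper, citing earlier work, describes EcR protein as strongly reduced in EcRi animals. Its Northern blot showed no expression of the hormone-induced gene E74A in them. Protein was not measured on these arrays.

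Transcripts of the Jonah genes fell in control animals to between 2.11% and 19.4% of their -4 h level by 4 h, whereas EcRi animals kept between 36.1% and 91.2%. In controls, 7 of 7 members were lower at 4 h than at -4 h, whereas 4.26% of all probe sets were called lower. EcRi arrays were higher than control arrays for 1 of 7 members at -4 h (1.78% of all probe sets were called higher), for 5 of 7 at 0 h (3.01%) and for 7 of 7 at 4 h (4.33%). The median difference over the members was 0.23, 1.57 and 3.47 at the 3 times, beside a median of 0 over all probe sets each time. All 3 EcRi arrays lay above all 3 control arrays for 2 members at -4 h (15.4% of all probe sets), for 6 at 0 h (17.2%) and for 7 at 4 h (24%). In RNA from whole animals, fewer midgut cells and less of these transcripts per cell cannot be told apart. Of 8 midgut markers that are no digestive enzymes, 4 were measured and none was called in either direction at any time. Their summed intensity was 1628 to 1658 in controls at 4 h and 2016 to 2225 in EcRi animals, with Ptx1 at the floor on all arrays. The marker mex1 held most of this sum, with means at 4 h of 1077 in controls and 1480 in EcRi animals. GATAe averaged 140 and 196, and GATAd 369 and 367. The part of the difference in the sum in the Jonah result was not tested.

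**Figure D1:**
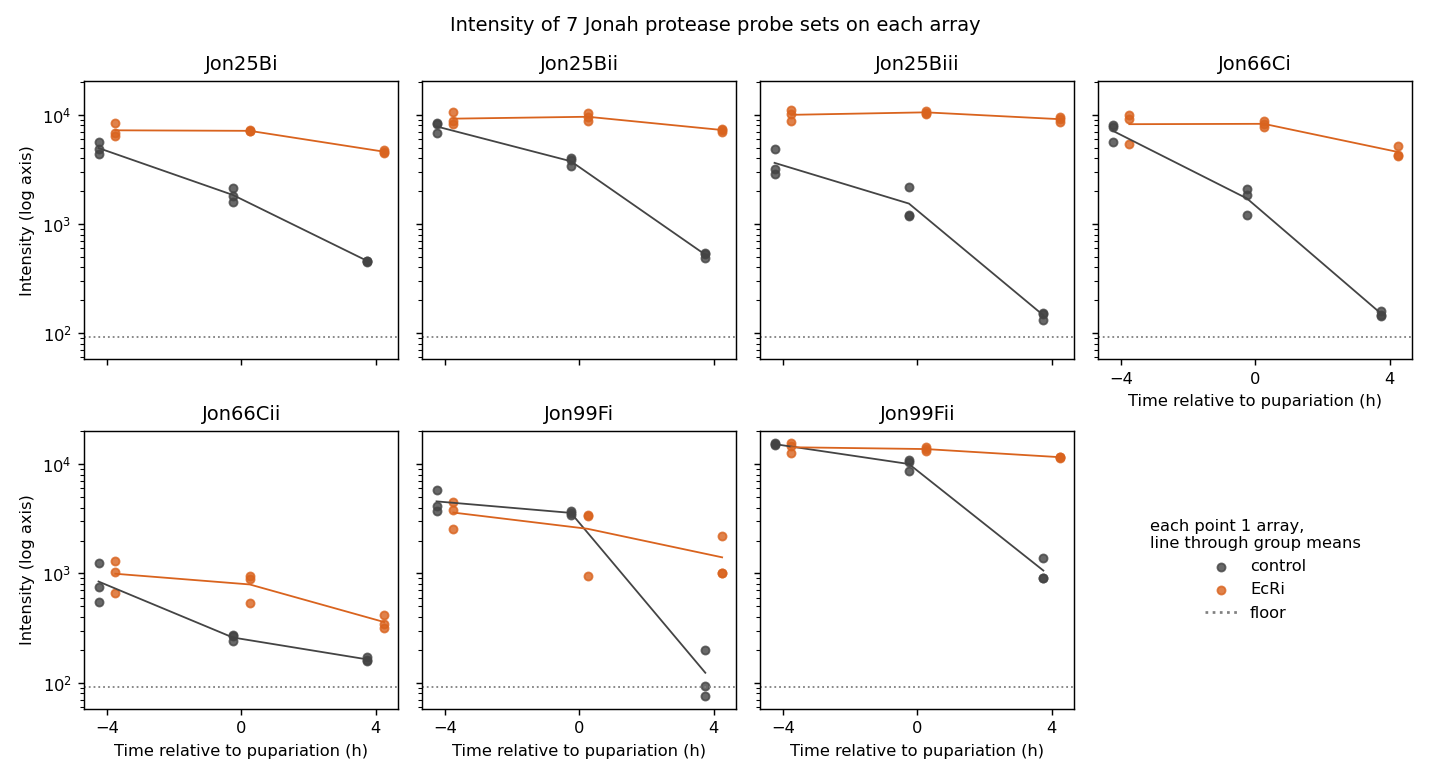
Intensity (log axis) of each Jonah probe set on every array against time relative to pupariation in hours, with 3 arrays per group as points, lines through the group means and a dotted line at the floor of 91.6. Control arrays (grey) fall by 4 h in all 7 panels, to 75.3 on the lowest Jon99Fi array, and at 4 h all EcRi arrays (orange) lie above all control arrays.

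The 25B cluster holds 3 genes that are direct neighbours on chromosome arm 2L in the RefSeq annotation (Release 6), in the order Jon25Biii, Jon25Bii, Jon25Bi. Jon25Biii was the member furthest from control. Its intensity was 2883, 3169.7 and 4810.2 on the control arrays at -4 h, 1193, 2197 and 1215 at 0 h, then 154, 132 and 151 at 4 h. The EcRi arrays gave 8716, 11050.4 and 10121 at -4 h, 10832, 10445 and 10224 at 0 h, then 9421, 9202 and 8639.7 at 4 h. No EcRi array came down to the level of any control array at any of the 3 times, and the EcRi arrays stayed within a narrow band while the controls fell towards the floor. The difference was 1.49 ± 0.22, 2.83 ± 0.22 and 5.96 ± 0.22 at the 3 successive times, with adjusted p of 0.0018, 3.2e-06 and 6.6e-10. The 4 h value corresponds to 62.4-fold and ranked 1 among the differences of all 13966 probe sets at 4 h. Jon25Biii was also the only member called at -4 h with all arrays in the fit.

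Jon25Bii followed a like course from a smaller initial difference. Control intensities were 6784, 8291 and 8333 at -4 h, 3357, 3883 and 3994 at 0 h, then 534, 545 and 489 at 4 h. EcRi intensities were 8294, 10611 and 8668 at -4 h, 8701, 10433 and 9566 at 0 h, then 7011, 7401 and 7287 at 4 h. The groups overlapped at -4 h, where the highest control array exceeded the lowest EcRi array, and were separate at 0 and 4 h. Its difference was 0.23 ± 0.11, 1.35 ± 0.11 and 3.79 ± 0.11 at the 3 successive times, with adjusted p of 0.39, 3.8e-06 and 4.7e-11.

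For Jon25Bi the controls measured 4381, 4873 and 5595 at -4 h, 1598, 2121 and 1802 at 0 h, then 462, 462 and 451 at 4 h. In EcRi animals the values were 6337, 8463 and 6770.2 at -4 h, 7093, 7071 and 7170.1 at 0 h, then 4487, 4728 and 4528 at 4 h. The groups did not overlap at any time, although the separation at -4 h was small. At -4 h the difference of 0.53 ± 0.11 had an adjusted p of 0.021 but stayed under 1.5-fold, and it was called (0.63 and 0.62, adjusted p = 0.015 and 0.020) when control -4 h replicate 3 or EcRi -4 h replicate 1 was left out. At 0 and 4 h it was 1.96 ± 0.11 and 3.32 ± 0.11, with adjusted p of 2.3e-07 and 3.3e-10.

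At 66C the adjacent genes Jon66Ci and Jon66Cii, on 3L, had estimated differences that took unlike courses over time. The courses were not tested against each other. Jon66Ci gave 5675, 7691 and 8035 on the control arrays at -4 h, 1218, 2084 and 1825 at 0 h, then 161, 147 and 143 at 4 h. EcRi arrays read 5419, 9985 and 9140.0 at -4 h, 7704, 8728 and 8297 at 0 h, then 5169.8, 4263 and 4213 at 4 h. At -4 h the lowest array of all was an EcRi array and the groups overlapped, whereas from 0 h on every EcRi array exceeded every control array. The difference was 0.17 ± 0.23, 2.30 ± 0.23 and 4.92 ± 0.23 at the 3 successive times, with adjusted p of 0.83, 3.0e-05 and 8.7e-09, the last ranking 9 among all probe sets.

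For Jon66Cii the control values were 542, 746 and 1239.7 at -4 h, 239, 271 and 267 at 0 h, then 157, 162 and 171 at 4 h. EcRi values were 665, 1287 and 1026 at -4 h, 541, 898 and 938 at 0 h, then 317, 415 and 345 at 4 h. Both strains declined, and the EcRi arrays stayed above the controls at 0 and 4 h. Its difference was 0.27 ± 0.30, 1.57 ± 0.30 and 1.13 ± 0.30 at the 3 successive times, with adjusted p of 0.76, 0.0049 and 0.022, so that Jon66Cii was the only member whose estimated difference from control was not larger at 4 h than at 0 h. The change in its difference between these times, -0.45 ± 0.42, had an adjusted p of 0.89.

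At 99F, Jon99Fii and Jon99Fi lie side by side on 3R. Jon99Fii measured 15280.4, 14947 and 15541 in controls at -4 h, 8708, 10974 and 10389.7 at 0 h, then 1370.0, 916 and 901 at 4 h. EcRi animals gave 12614, 15557 and 14655 at -4 h, 13160.3, 14431 and 13634 at 0 h, then 11623, 11447 and 11658 at 4 h. The groups overlapped at -4 h and were apart afterwards, by a small margin at 0 h and a wide one at 4 h. Its difference was -0.10 ± 0.14, 0.46 ± 0.14 and 3.47 ± 0.14 at the 3 successive times, with adjusted p of 0.82, 0.057 and 1.3e-09, the middle value being under 1.5-fold and not called. The name of this probe set ends in _f_at, which Affymetrix used for probes that several members of a gene family can share, so the value may include other Jonah transcripts.

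Jon99Fi was the most variable member. Controls measured 4140.4, 3689 and 5857 at -4 h, 3608, 3427 and 3705 at 0 h, then 201, 75.3 and 93.1 at 4 h, where the lowest array fell below the floor of 91.6. EcRi arrays gave 2570.3, 4477.5 and 3765 at -4 h, 937, 3388 and 3352 at 0 h, then 998, 2204 and 1007 at 4 h. At 0 h all 3 EcRi arrays lay below all 3 controls, by little on replicates 2 and 3 and by much on replicate 1, the array that stood apart. The difference was -0.35 ± 0.49, -0.70 ± 0.49 and 3.45 ± 0.49 at the 3 successive times, with adjusted p of 0.84, 0.38 and 0.00045. Without EcRi 0 h replicate 1 the 0 h value was -0.09. The 4 h value rested on dim control spots and was 2.81 with the floor at the 40th percentile, where it was still called. It was 4.20 without 4 arrays (the pair that stood apart, and EcRi 4 h replicates 1 and 3). That fit keeps only EcRi 4 h replicate 2, the array with the highest of the 3 values.

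**Figure D2:**
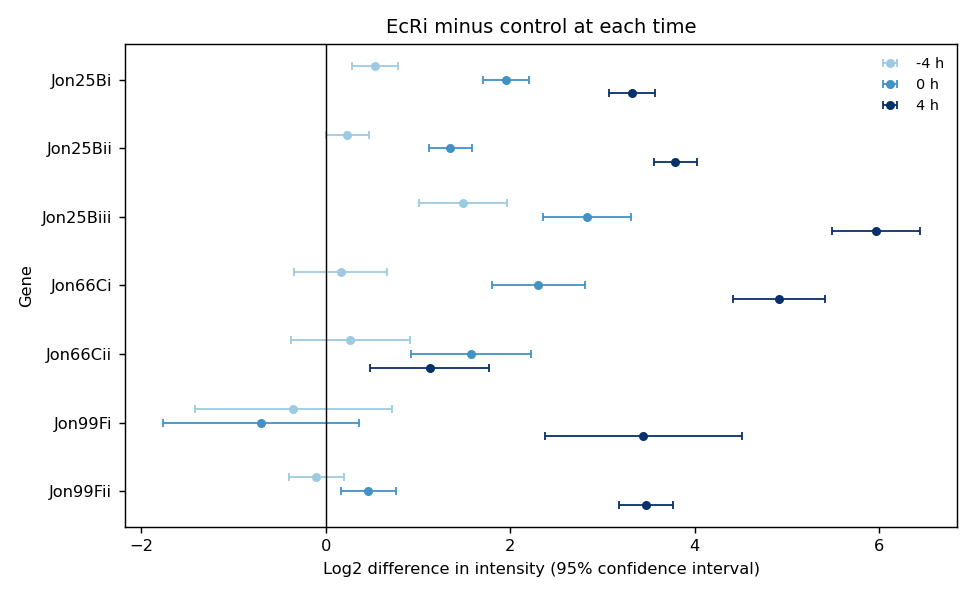
Log2 difference in intensity (EcRi minus control) of the 7 genes at -4, 0 and 4 h, with 95% confidence intervals from the limma fit on 3 arrays per group. The 4 h intervals lie above 0 for all 7 genes, with estimates from 1.13 for Jon66Cii to 5.96 for Jon25Biii, while only the intervals of the 3 genes of 25B lie above 0 at -4 h. The intervals are not adjusted for the number of probe sets. That of Jon25Bii at -4 h starts at 0.0016, and its adjusted p by limma was 0.39.

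The normal course of these transcripts was read from the controls alone. Between -4 and 0 h, 6 of 7 members were called lower (1.67% of all probe sets), between 0 and 4 h again 6 of 7 (2.66%). Jon66Ci fell by 2.08 ± 0.23 in the first interval (adjusted p = 0.00015) and by 3.47 ± 0.23 in the second (adjusted p = 4.8e-07). Its change over both, -5.55 ± 0.23, was the lowest of all 13966 probe sets. This size rests on dim control values at 4 h, 143 to 161. Jon25Bi changed by -1.43 in the first interval and by -3.43 over both, Jon25Bii by -1.06 and -3.90 and Jon25Biii by -1.26 and -4.60, all called. With only the compared arrays in the fit, the first-interval call of Jon25Biii was lost (adjusted p = 0.20).

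At 0 h the control means of Jon99Fi and Jon99Fii stood at 78.5% and 65.7% of their -4 h means, against 37.2%, 48.0% and 42.4% for Jon25Bi, Jon25Bii and Jon25Biii and 24.0% and 30.7% for Jon66Ci and Jon66Cii. With 3 arrays per group none of these differences between genes could pass the exact permutation test, and the ratio of Jon25Biii to Jon99Fii overlapped between -4 and 0 h. Jon99Fi changed by -0.32 ± 0.49 from -4 to 0 h (adjusted p = 0.80) and by -4.90 ± 0.49 from 0 to 4 h (adjusted p = 2.3e-05). The latter rests on control values at 4 h near the floor, 1 of them below it, and was -4.27 with the floor at the 40th percentile. Jon99Fii changed by -0.61 ± 0.14 and -3.26 ± 0.14. Its first-interval call was lost with quantile normalization (-0.36), with array medians aligned (-0.58) and without control 0 h replicate 1 (-0.51). Jon66Cii changed by -1.62 ± 0.30 from -4 to 0 h (adjusted p = 0.0077) and by -0.66 ± 0.30 from 0 to 4 h (adjusted p = 0.39). These calls swapped with only the compared arrays in the fit (adjusted p = 0.12 and 0.0064), and its control values at 4 h, 157 to 171, were dim. By 4 h the control means were at 2.11% (Jon66Ci), 2.70% (Jon99Fi), 4.03% (Jon25Biii), 6.70% (Jon25Bii), 6.96% (Jon99Fii), 9.26% (Jon25Bi) and 19.4% (Jon66Cii) of their -4 h values, and for each gene no control array at 4 h reached the lowest array of the next higher group.

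In EcRi animals no member was called between -4 and 0 h by limma and none had an unadjusted p under 0.05, but 0% of all probe sets were called lower in this contrast, so the count says nothing particular about the members. Estimates ran from -0.68 for Jon99Fi and -0.32 for Jon66Cii, whose means at 0 h were 71.0% and 79.8% of those at -4 h, to 0.08 for Jon25Biii. Jon25Bii changed by 0.06 with a 95% confidence interval from -0.17 to 0.29, and Jon25Bi by -0.0046 (-0.25 to 0.24), whereas the interval of Jon99Fi, from -1.74 to 0.39, was wide. From 0 to 4 h, 3 of 7 members were called lower (0.78% of all probe sets), namely Jon25Bi at -0.63 ± 0.11 (adjusted p = 0.017), Jon66Ci at -0.86 ± 0.23 (adjusted p = 0.096) and Jon66Cii at -1.11 ± 0.30 (adjusted p = 0.096). The latter pair lay close to the threshold, and the count was 1 when any of 12 single arrays was left out (control -4 h replicate 2, control 0 h replicates 2 and 3, all control 4 h arrays, EcRi -4 h replicates 2 and 3, EcRi 0 h replicates 2 and 3, and EcRi 4 h replicates 1 and 3).

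Over the whole 8 h span of EcRi animals Jon25Bi (-0.64 ± 0.11, adjusted p = 0.010) and Jon66Cii (-1.43 ± 0.30, adjusted p = 0.023) were called lower, 2 of 7 members beside 1.58% of all probe sets. The count was 0 without EcRi -4 h replicate 2 and 4 without EcRi 0 h replicate 1. Mean intensity at 4 h was 91.2% of the -4 h mean for Jon25Biii, 81.1% for Jon99Fii, 78.7% for Jon25Bii, 63.7% for Jon25Bi, 55.6% for Jon66Ci, 38.9% for Jon99Fi and 36.1% for Jon66Cii.

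**Figure D3:**
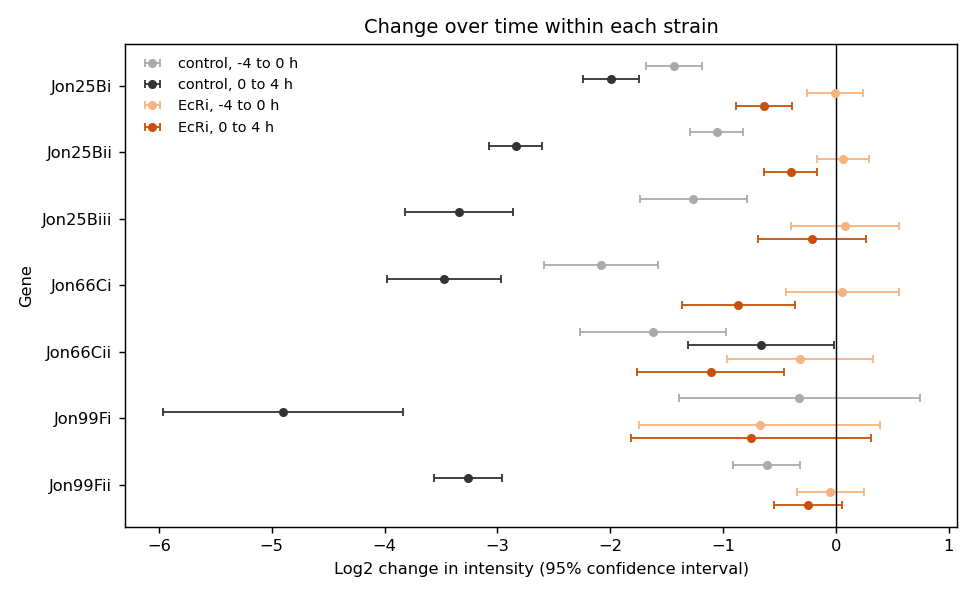
Log2 change in intensity of the 7 genes within controls (grey shades) and within EcRi animals (orange shades) from -4 to 0 h and from 0 to 4 h, with 95% confidence intervals from the limma fit on 3 arrays per group. The largest decrease is that of Jon99Fi in controls from 0 to 4 h (-4.90), and the EcRi changes lie between -1.11 and 0.08.

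Tests of the strain-by-time interaction asked whether the 2 strains diverged. From -4 to 0 h the difference between EcRi and control animals widened for 4 of 7 members (0.881% of all probe sets were called in that direction). It grew by 2.14 ± 0.33 for Jon66Ci (adjusted p = 0.0047), 1.43 ± 0.16 for Jon25Bi (adjusted p = 0.00060), 1.34 ± 0.31 for Jon25Biii (adjusted p = 0.066) and 1.12 ± 0.15 for Jon25Bii (adjusted p = 0.0019). The call of Jon25Biii did not hold with only the compared arrays in the fit (adjusted p = 0.23), nor without any of control -4 h replicate 3, control 0 h replicates 1 and 3, EcRi -4 h replicates 1, 2 and 3 and EcRi 0 h replicates 1 and 2 (adjusted p from 0.107 to 0.191). The estimates of Jon66Cii (1.30 ± 0.42, adjusted p = 0.25) and Jon99Fii (0.56 ± 0.19, adjusted p = 0.30) did not pass. From 0 to 4 h the difference (EcRi minus control) rose for 6 of 7 members (1.53%). The rise was 4.15 ± 0.69 for Jon99Fi (adjusted p = 0.0045), 3.13 ± 0.31 for Jon25Biii (adjusted p = 5.5e-05) and 3.01 ± 0.19 for Jon99Fii (adjusted p = 9.3e-07). It was 2.61 ± 0.33 for Jon66Ci (adjusted p = 0.00046), 2.44 ± 0.15 for Jon25Bii (adjusted p = 6.8e-07) and 1.36 ± 0.16 for Jon25Bi (adjusted p = 0.00027). For Jon99Fi the difference changed sign, from -0.70 at 0 h to 3.45 at 4 h, and its control values at 4 h lay near the floor. Its rise was 3.53 without the 2 arrays that stood apart.

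Responses of the members were compared with each other as the within-array log2 ratio of a pair of genes, over 21 pairs and 5 comparisons. With 3 arrays against 3, the two-sided exact permutation test cannot go below p = 0.10, which became 0.131 after adjustment over the 105 tests, so no pair could pass. Pairs share genes, and the share of non-overlapping ranges among pairs of other probe sets was not computed. Overlap of the ratio is therefore given for single pairs only. The EcRi difference at 4 h was larger for Jon66Ci than for Jon66Cii by 3.79, and smaller for Jon25Bii than for Jon25Biii by 2.17, without overlap in either case. For Jon99Fi and Jon99Fii it differed by -0.03, with SDs of the ratio of 0.31 in controls and 0.67 in EcRi animals, and the ranges overlapped. In the control change from -4 to 0 h the pair furthest apart was Jon66Ci and Jon99Fi (-1.76, no overlap).

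Over the 18 arrays the Pearson correlation between members ran from 0.73 (Jon25Biii and Jon99Fi) to 0.99 (Jon25Bii and Jon66Ci). These values describe points that share the same 6 groups and arrays. After the group means were removed the correlations ranged from 0.18 (Jon25Biii and Jon99Fi) to 0.82 (Jon25Bi and Jon25Biii). Jon99Fi had its low EcRi values at 0 h on replicate 1 and at 4 h on replicates 1 and 3, the arrays with negative scores (-61.0, -8.22 and -16.4) on the first component of the within-group spread in those groups. Whether that component has a part in the Jon99Fi values was not tested.

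Other Jonah genes and other digestive enzymes were read alongside. Of all 13966 probe sets, 1.78%, 3.01% and 4.33% were called higher in EcRi animals at -4, 0 and 4 h, and 163, 653 and 1268 were called lower. The median over all probe sets was 0 each time. Of 7 Jonah genes at other loci, 0, 6 and 6 were called higher in EcRi animals at -4, 0 and 4 h, with medians of 0.11, 0.85 and 2.55. At 4 h the difference was 2.67 for Jon65Aiv, 2.63 for Jon65Aiii, 2.61 for Jon65Aii and 2.55 for Jon99Ci. Jon65Ai, singled out after its values were seen, was the exception at -0.33 ± 0.15 (adjusted p = 0.15), with mean intensities of 3925 in control and 3108 in EcRi animals. Among 15 other gut serine proteases, 0, 7 and 10 were called higher, among them at 4 h yip7 (3.31), the trypsin genes epsilonTry and alphaTry (both 2.76) and betaTry (1.93). The trypsins alphaTry and betaTry have near-identical copies, so their values are uncertain. Of 12 gut carbohydrases 2, 3 and 6 were higher, including the amylase gene Amy-d (2.39) and the maltase genes Mal-A1 (1.22) and Mal-A3 (1.02) at 4 h, while 1, Mal-A5, was lower at each time (-1.16 at 4 h). Lysozyme genes were higher for 1, 6 and 6 of 7, with LysS at 2.24, LysP at 1.57, LysD at 1.54 and LysE at 1.53 at 4 h. The exception at 0 and 4 h was LysX, at -0.81 ± 0.32 and -0.57 ± 0.32, neither called. In controls LysX was called higher at 4 h than at -4 h (1.15 ± 0.32). LysB, LysC, LysD and LysE were all read by probe sets of the shared-probe type, so the counts of 6 may not stand for separate signals.

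Genes of other tissues were examined because the RNA came from whole animals. Their counts stand beside 1.78%, 3.01% and 4.33% of all probe sets called higher at -4, 0 and 4 h, and 1268 of 13966 called lower at 4 h. All 6 salivary gland glue genes, which encode the secretion that fixes the puparium, were higher in EcRi animals at 0 and 4 h and none at -4 h, with Sgs4 at 5.29, Sgs3 at 5.15, Sgs5 at 4.49 and Sgs1 at 4.43 at 4 h. Their summed intensity at 4 h was 2787 to 3629.8 in controls and 56385 to 59729.9 in EcRi animals. Of 3 fat body genes none was higher at any time, and Lsp2 was lower at 4 h (-0.70), with sums of 44012 to 45733 in controls and 35342 to 39565 in EcRi animals. Muscle genes were higher for 0, 0 and 2 of 3 (Mlc1 at 1.31 and up at 0.71 at 4 h), and their sums at 4 h were 1448 to 1571 in controls and 2382 to 2668 in EcRi animals. Haemocyte genes were higher for 2, 3 and 2 of 5, led by the prophenoloxidase genes PPO2 (3.39) and PPO1 (1.19) at 4 h, with sums of 1527 to 1662 and 3639 to 5188. Most of the difference in the sum lay in PPO2, with means of 194 in controls and 2073 in EcRi animals. PPO2 and PPO1 were already called higher at -4 h (2.60 and 1.23). At 4 h Pxn (0.70), Hml (0.43) and NimC1 (0.05) were not called. The midgut markers with the largest differences at 4 h were GATAe, a GATA factor of the midgut (0.48 ± 0.16, adjusted p = 0.059), and mex1, a gene of the midgut epithelium (0.46 ± 0.07, adjusted p = 0.00050), both under 1.5-fold. The marker GATAd differed by -0.008 ± 0.12, and Ptx1 was at the floor. The part of these tissues' transcripts in the Jonah result was not tested.

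**Figure D4:**
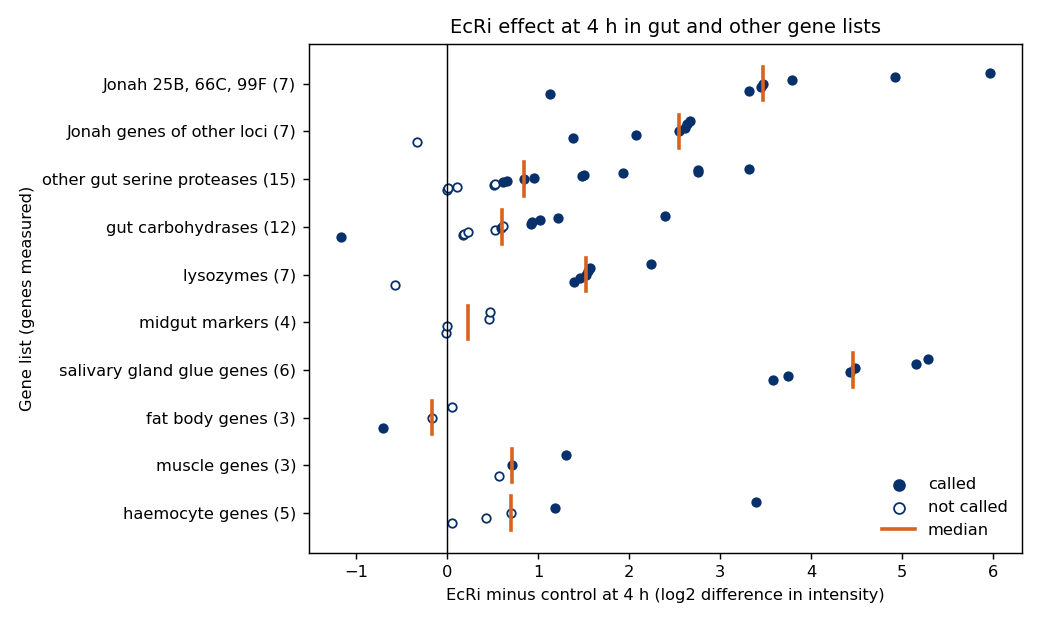
Log2 difference in intensity (EcRi minus control, 3 arrays each) at 4 h for the 7 Jonah genes and for the measured genes of 9 lists, 1 point per gene, filled where called, with orange bars at list medians. The Jonah genes of 25B, 66C and 99F have a median of 3.47, the glue genes 4.46, the other Jonah genes 2.55 and the midgut markers, none of them called, 0.23.

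The genes whose pattern was most like that of the members were sought among 1651 probe sets with 1 symbol, by Pearson correlation over the 18 arrays with the mean of the centred log2 values of the 7 members. The closest were CG11911 (0.993), betaTry (0.990) and Jon74E (0.990), followed by Jon65Aiii, Sgs5, Ag5r2, CG8952, Jon65Aii, Jon65Aiv and alphaTry (0.985 for the last). CG11911 averaged 2795, 1610.0 and 495 in controls and 3623, 3168 and 2793 in EcRi animals at the successive times. For single members the nearest gene was Ag5r2 for Jon25Bi (0.995), Sgs5 for Jon25Bii (0.993), CG34282 for Jon25Biii (0.991), betaTry for Jon66Ci (0.995), Jon44E for Jon66Cii (0.973), CG8997 for Jon99Fi (0.974) and Jon65Aiv for Jon99Fii (0.992). CG8997 averaged 4793, 4799 and 713 in controls at the successive times, beside 4562, 3579.9 and 123.2 for Jon99Fi.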

How the data were processed

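Total RNA from pools of 10 whole animals was hybridised by the authors, 1 array per sample, and each deposited value is 1 linear intensity for a probe set, normalized and summarised by the authors in dChip. The combination of probes, the handling of background and the choice of baseline array are points not given in the sources used here, and no detection or saturation calls were used. The number of arrays limits the precision. Groups came from the sample labels.

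Values below the 20th percentile of all values (91.6) were set to that floor before the log2 transform. No array exceeded the floor for 1285 probe sets. A limma model (version 3.58.1, R 4.3.3) with 1 mean per group was fitted to all 13966 probe sets, with Benjamini-Hochberg adjustment within each contrast across the whole table. The fit was tested on simulated data. The members and lists were chosen with earlier results of these data known. Named were all members, EcR, up to 4 called genes per list with the largest difference at 4 h (the 2 largest where none was called), the 10 probe sets most correlated with the members' mean and the 1 most correlated with each member, among those whose group means span at least 1 on the log2 scale. A gene with several probe sets was represented by the brightest. Symbols came from the platform annotation (12443 probe sets with 1 symbol, 327 with several, 1196 with none), and 12394 matched RefSeq. No coordinates were used, and promoter and protein sequences were not used here.

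Alternatives covered the floor, a pseudocount of 16, quantile normalization, aligned medians, brighter probe sets only, a variance trend, the compared arrays only, a replicate block, stricter thresholds, each array left out, and, for the strain differences, a reimplementation of the study's significance analysis of microarrays.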

Additional observations from a re-analysis of the deposited data

Results flagged for a closer look

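These results are listed because the EcRi effect on a gene differed between successive times by a test of the strain-by-time interaction in limma. From -4 to 0 h the EcRi effect rose by 1.43 for Jon25Bi (adjusted p = 0.00060), 1.12 for Jon25Bii (0.0019 adjusted), 1.34 for Jon25Biii (0.066 adjusted) and 2.14 for Jon66Ci (0.0047 adjusted). From 0 to 4 h it rose by 1.36 for Jon25Bi (0.00027 adjusted), 2.44 for Jon25Bii (6.8e-07 adjusted), 3.13 for Jon25Biii (5.5e-05 adjusted), 2.61 for Jon66Ci (0.00046 adjusted), 4.15 for Jon99Fi (0.0045 adjusted) and 3.01 for Jon99Fii (9.3e-07 adjusted). The Jon99Fi effect changed sign, from -0.70 at 0 h to 3.45 at 4 h. Its rise was 3.53 without the 2 arrays that stood apart. Groups of 3 arrays are too small for a test of single outlying arrays.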

How the results depend on the processing

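Of 32 alternatives, all left the count of members higher in EcRi animals at 5 (0 h) and 7 (4 h). At -4 h the count was 1 to 2 when single arrays were left out. Among 1974 values of single members under the alternatives, 1892 kept direction and side of the threshold, 59 were no longer past it, 7 newly passed and 16 changed sign. Leaving out an array of a group outside the comparison cannot alter an estimate, nor can a stricter threshold. Part of this tally was therefore fixed in advance. The fit without 4 arrays kept only EcRi replicate 2 at 4 h, so what it calls at that time rests on 1 array. Its counts are left out of the ranges that follow. The least stable count was that of members falling in EcRi animals from 0 to 4 h (3). It was 1 with the floor at the 40th percentile, quantile normalization, a variance trend, the compared arrays only, an adjusted p under 0.05 or a 2-fold limit, and 1 to 4 with single arrays left out. From -4 to 4 h (2) it was 1 with quantile normalization or a 2-fold limit, 0 with the compared arrays only, 4 without 2 arrays, and 0 to 4 with single arrays left out. The cause was not tested.

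At -4 h the EcRi effect of Jon66Cii was -0.0064 without 2 arrays, without 4 arrays and at its lowest with single arrays left out (highest 0.59), and that of Jon66Ci ranged from -0.0029 to 0.44 with single arrays left out. The EcRi change from -4 to 0 h of Jon25Bi was 0.0068 with quantile normalization, 0.019 with medians aligned and -0.090 to 0.12 with single arrays left out, as against -0.0075 to 0.17 for Jon25Bii, -0.011 to 0.16 for Jon25Biii, -0.21 to 0.23 for Jon66Ci and -0.14 to 0.014 for Jon99Fii. The EcRi change of Jon99Fii from 0 to 4 h was 0.00076 with quantile normalization. The interaction of Jon99Fi from -4 to 0 h (-0.35 ± 0.69, not called) was 0.32 without 2 or 4 arrays and -0.66 to 0.26 with single arrays left out.

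Replicate numbers were not used to pair the samples in the main fit. Same-numbered control and EcRi arrays correlated in their deviations from group means by -0.47 to 0.30. With 3 arrays per group these values cannot exclude a shared batch. With the replicate block, the interaction count from -4 to 0 h was 3 in place of 4, Jon25Biii having an adjusted p of 0.107, and the count from -4 to 4 h in EcRi animals was 3 in place of 2. The other counts of members were as without the block.

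Dim control values at 4 h limit the folds of Jon99Fi, Jon66Ci, Jon66Cii and Jon25Biii, and Jon99Fii reached 15557 where the highest value of any probe set was 20235, so a compressed response at the top of the scale was not tested.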
